A study of Rattus norvegicus with 12 samples.

Results

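The genes described here are 10 immediate early genes of rat liver, chosen by their symbols in the deposited table of counts: the transcription factor genes Fos, Fosb, Jun, Junb, Egr1, Atf3 and Myc, the immediate early response genes Ier2 and Ier3, and Ccn1, which encodes a secreted growth and matrix protein. They are 10 of 33744 genes in the table, and all 10 passed the filter on low counts that left 13687 genes for testing. Their lowest count in any liver was 11 reads, for Fosb in WI liver 2.

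Liver tissue came from male Sprague Dawley rats 6 to 8 weeks old in a model of donation after circulatory death, with 3 livers in each of 4 groups and RNA-seq of 1 library per liver. Every liver, controls included, had 30 min of warm ischemia in situ. The WI 30 min livers were sampled with no cold storage, and the SCS 4 h livers then had 4 h of static cold storage in histidine-tryptophan-ketoglutarate solution. In both perfused groups, HMP 1 h and HOPE 1 h, storage lasted 3 h and was followed by 1 h of hypothermic machine perfusion through the portal vein at 4 °C and 1.2 mL/min, and in HOPE 1 h the perfusate was oxygenated to 60 to 80 kPa. No group was without ischemia, so levels of these genes in untouched liver were not measured here, and all livers were sampled before any rewarming.

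Immediate early genes are transcribed within minutes of a stimulus, without the need for new protein synthesis, when kinases activate transcription factors that already sit in the cell. Their products are mostly short-lived transcription factors that switch on later genes, and their RNAs are unstable, so their level follows a stimulus closely. In liver they are known from partial hepatectomy, ischemia and reperfusion, and oxidative stress, and many are also induced by the handling of tissue. Fos and Jun family proteins pair to form the factor AP-1, while Ccn1 is a target of serum response factor and of the YAP pathway.

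Total counts per liver ranged from 15262961 to 18343167. Summed hepatocyte markers were at 151065 to 233030 CPM (counts scaled by library total with TMM normalization) over the 12 livers, and 0 of these 11 markers were at 0 in all livers, so the labelled tissue was present in every library. HMP liver 1 and HOPE liver 3 stood apart. Scores of 4 marker lists, for bile duct, stellate, Kupffer and sinusoidal endothelial cells, were averaged into a non-parenchymal score (log2 CPM minus the mean over all livers). HMP liver 1 scored 1.06, HOPE liver 3 scored 0.799, and the rest lay between -0.625 and 0.173. The share of counts from mitochondrial genes was 18.7% in HMP liver 1 and 4.79% to 10.2% elsewhere. Called results and the largest differences of the members are given with and without both of these livers, and in whole tissue fewer cells of a type and less RNA per cell cannot be told apart.

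The promoter sequences of 5 members, Ccn1, Egr1, Fosb, Ier2 and Junb, were in the RefSeq table used here (build GRCr8). Those of Ccn1, the member that passed the test, and of Ier2 and Junb, whose levels ran together across livers, are shown as the 160 bases before the transcription start, 5′ to 3′ on the strand of the gene. Capitals mark TGACG, the core of the cAMP response element, or its full palindrome TGACGTCA, on either strand.
Ccn1, chr2:237225690-237225849, minus strand: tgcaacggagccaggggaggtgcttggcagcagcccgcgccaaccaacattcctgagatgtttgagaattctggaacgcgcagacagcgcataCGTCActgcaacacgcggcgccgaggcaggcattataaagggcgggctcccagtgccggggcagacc
Ier2, chr19:40399213-40399372, plus strand: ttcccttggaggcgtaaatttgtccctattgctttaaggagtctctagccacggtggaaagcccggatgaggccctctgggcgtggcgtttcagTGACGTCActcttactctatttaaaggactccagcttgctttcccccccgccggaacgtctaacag
Junb, chr19:40080966-40081125, plus strand: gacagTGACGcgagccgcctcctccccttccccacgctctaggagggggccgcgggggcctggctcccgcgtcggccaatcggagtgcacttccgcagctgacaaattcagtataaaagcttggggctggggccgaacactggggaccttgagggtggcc

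A set of 5 motifs was searched on both strands in the 250 bases before the start, and their shares were taken over 27457 rat promoters of the same length. The full element TGACGTCA stood in 1.7% of promoters, and among the members in that of Ier2, with its first base 66 bases before the start. Its core TGACG, which the full element contains on both strands, stood in 19.0% of promoters and in those of Ccn1, Egr1, Ier2 and Junb. The CArG box, the binding motif of serum response factor, stood in 1.5% of promoters, and Egr1 held 2 of them. The AP-1 letters TGANTCA stood in 6.36% of promoters and in 0 of the 5 members' windows, and the GC box GGGCGG in 32.4% and in that of Ccn1. The window of Fosb held 0 of the 5 motifs. These matches describe letters and were not tested for binding.

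Per length, in FPKM averaged over the 12 livers, the members fell into a high and a low set. Jun stood highest at 77.3, followed by Egr1 at 63.6, Junb at 56.7, Ier2 at 50.6, Ccn1 at 28.8, Ier3 at 23.6 and Fos at 18.2 FPKM. Myc at 5.30, Atf3 at 3.47 and Fosb at 1.66 FPKM were the lowest. All following levels are CPM, which compare livers for 1 gene and not genes with each other.

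Fos (chromosome 6:109300433-109303299 in Rnor_6.0, plus strand), the founding AP-1 subunit, was at 24.6, 8.12 and 13.7 CPM in WI livers 1 to 3, 11.5, 11.5 and 19.0 in SCS livers, 75.7, 42.1 and 16.8 in HMP livers and 23.3, 26.7 and 75.5 in HOPE livers. One liver of each perfused group, HMP liver 1 and HOPE liver 3, was far above the rest. The perfused livers as a whole overlapped the unperfused ones, since HMP liver 3 lay below WI liver 1 and SCS liver 3. Fosb (chromosome 1:80214494-80221710, minus strand), which encodes a related AP-1 subunit, followed the same livers, with 6.20, 0.687 and 5.44 CPM in WI, 1.01, 1.2 and 4.45 in SCS, 21.2, 6.49 and 2.24 in HMP and 3.70, 3.49 and 18.6 in HOPE. The same pair of livers was highest for Fosb, and every group overlapped every other.

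Jun (chromosome 5:114011189-114014277, minus strand), the main partner of Fos, showed a different picture. Its levels were 161, 151 and 181 CPM in WI, 104, 300.4 and 238 in SCS, 325, 326 and 316 in HMP and 256, 253 and 257 in HOPE. The perfused groups were tight, with means of 322 ± 5.59 and 255 ± 1.88 CPM (SD, n = 3), and both lay above all WI livers, while SCS ranged from below WI to near HMP. Junb (chromosome 19:26092974-26094756, minus strand), an AP-1 subunit that can temper Jun, was at 56.9, 97.2 and 76.7 CPM in WI, 88.3, 110.5 and 120 in SCS, 122, 122 and 165 in HMP and 59.5, 97.2 and 100.1 in HOPE. HMP livers were above all others for Junb, and HOPE overlapped both WI and SCS.

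Egr1 (chromosome 18:27657628-27661429, plus strand), a zinc finger factor induced by growth factors and stress, was at 143, 193 and 150 CPM in WI, 172, 215 and 259 in SCS, 285, 228 and 271 in HMP and 142, 146 and 188 in HOPE. HMP lay above WI and HOPE without overlap, and SCS overlapped each of the other groups. Atf3 (chromosome 13:109817728-109849632, minus strand), a stress-induced factor of the ATF and CREB family, was at 9.41, 2.69 and 9.60 CPM in WI, 3.42, 14.0 and 11.2 in SCS, 20.4, 6.74 and 11.2 in HMP and 10.8, 8.41 and 13.4 in HOPE. Its groups overlapped throughout.

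Ier2 (chromosome 19:25774143-25775659, minus strand), which encodes a nuclear regulator and carries the biotype pseudogene in the deposited annotation, was at 59.2, 80.6 and 54.7 CPM in WI, 71.6, 86.6 and 91.1 in SCS, 99.9, 83.7 and 85.1 in HMP and 42.5, 61.9 and 76.4 in HOPE. HMP was above WI and HOPE in every liver, as for Egr1. Ier3 (chromosome 20:3438798-3440769, minus strand), a regulator of survival and of NF-kappaB signalling, was at 18.3, 36.1 and 24.8 CPM in WI, 34.2, 25.8 and 29.3 in SCS, 27.8, 19.3 and 24.2 in HMP and 23.9, 69.7 and 30.7 in HOPE. HOPE liver 2 stood alone at the top, every HMP liver was within the range of WI, and no group was set apart.

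Myc (chromosome 7:102586313-102591240, plus strand), a driver of ribosome production and cell growth, was at 23.3, 20.4 and 11.3 CPM in WI, 8.29, 7.22 and 7.0 in SCS, 19.8, 27.7 and 12 in HMP and 14.0, 8.88 and 11.1 in HOPE. The SCS livers were the lowest 3 of the 12 and did not overlap any other group. Ccn1 (chromosome 2:251529354-251532312, minus strand), the secreted member, was at 32.5, 21.4 and 32.9 CPM in WI, 32.8, 38.0 and 46.4 in SCS, 143, 44.4 and 65.2 in HMP and 53.4, 82.7 and 95.6 in HOPE. HMP liver 2 lay just under SCS liver 3, and every other perfused liver was above every unperfused one.

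**Figure D1:**
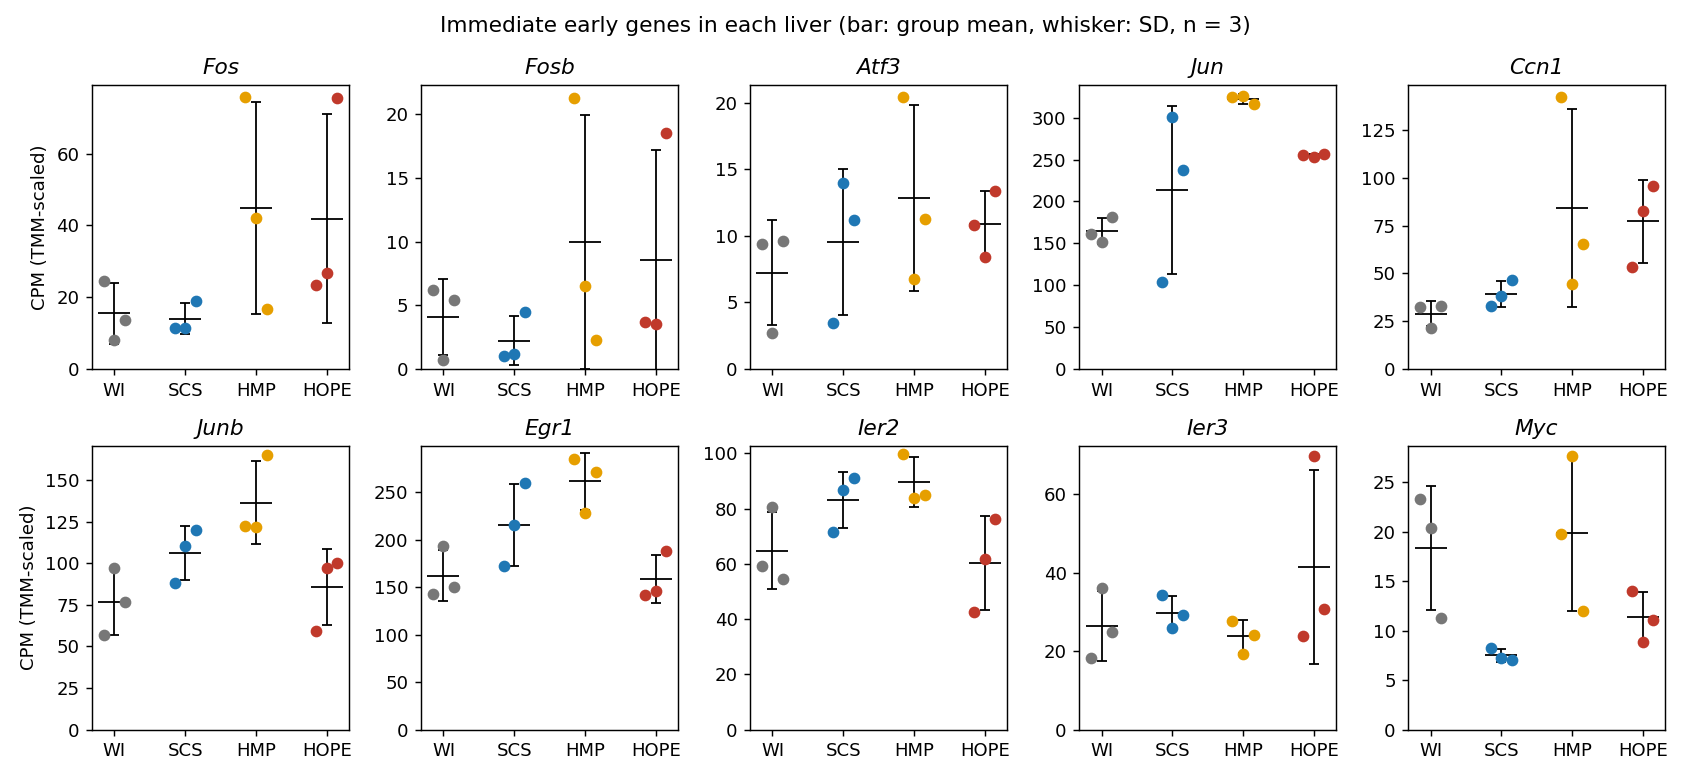
CPM (TMM-scaled, linear axis from 0) of each gene in each of the 12 livers, by group, with a point per liver, a bar for the group mean and a whisker for the SD (n = 3). Jun is tight in HMP (316 to 326 CPM) and HOPE (253 to 257 CPM), Fos has 1 liver near 75.5 CPM in each perfused group, and Myc is at 7.0 to 8.29 CPM in the 3 SCS livers.

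Perfused livers (HMP 1 h and HOPE 1 h) were compared with unperfused livers (WI 30 min and SCS 4 h) to ask what perfusion of either kind goes with. The WI livers had no cold storage, so this comparison does not separate perfusion from storage. Ccn1 was higher, by 2.40-fold (log2 fold change 1.26, SE 0.263, adjusted p = 0.0475, edgeR's quasi-likelihood test with Benjamini-Hochberg adjustment), and was the only member called in this or any other comparison with that test. Over all genes 140 of 13687 were called, or 1.02%, so 1 of 10 members was called against that background. Fos had a larger difference and a larger error, 2.95-fold (log2 1.56, SE 0.413, adjusted p = 0.0959), and Fosb larger ones still, 3.08-fold (log2 1.62, SE 0.686, adjusted p = 0.251). Jun was 1.53-fold higher (log2 0.61, SE 0.195, adjusted p = 0.15). The other members lay between 0.00 for Ier2 and 0.51 for Atf3 on the log2 scale. The values of Fos, Fosb and Atf3 moved with HMP liver 1 and HOPE liver 3. Without this pair of livers the log2 difference was 0.89 for Fos (SE 0.320, adjusted p = 0.256), 0.41 for Fosb (SE 0.581, adjusted p = 0.817) and 0.17 for Atf3, while Jun stayed at 0.61 (adjusted p = 0.274). With the non-parenchymal score as a covariate in the edgeR fit it was 0.85 for Fos (adjusted p = 0.209), 0.40 for Fosb (adjusted p = 0.788), 0.14 for Atf3 and 0.57 for Jun (adjusted p = 0.28).

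All 10 fold changes were above 0 in that comparison, as were 54.7% of those of all genes, and the median of the members was 0.43 against 0.03 for all genes. At an unadjusted p under 0.05, 4 members were higher and 0 lower, against 8.82% and 8.85% of all genes. Without HMP liver 1 and HOPE liver 3, 9 of the 10 were above 0 with a median of 0.30, and 3 were higher at that level. With perfused and unperfused livers pooled, 0 members were without overlap, against 1.83% of all genes. The Ccn1 call was close to the threshold: it was kept when any HMP liver was left out (adjusted p = 0.0349 to 0.0494) and lost when any of the other 9 livers was left out, up to 0.125 without WI liver 1. Without HMP liver 1 and HOPE liver 3 together its log2 fold change was 0.87 (adjusted p = 0.0785). With the non-parenchymal score as a covariate it was 0.79 (adjusted p = 0.0414). DESeq2 called Ccn1 (adjusted p = 0.000234), Fos and Jun, 3 of 10 members, among 757 genes.

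HOPE 1 h was compared with HMP 1 h, where the protocols differ by oxygen in the perfusate. The livers also varied in the circadian clock gene Dbp. Its counts were 138, 217 and 1288 in HMP livers 1 to 3 and 663, 3129 and 3322 in HOPE livers 1 to 3. The part of clock genes in this comparison was not tested. EdgeR called 0 members and 0 of 13687 genes (0%), with 1024 genes at an unadjusted p under 0.05, and DESeq2 called 0 members and 19 genes. Of the members, 9 of 10 had values below 0 and 1 above, where 49% of all genes were above, and the median was -0.29 against -0.0064 for all genes. Egr1, Junb, Ier2 and Jun were lower in every HOPE liver than in every HMP liver, 4 of 10 members against 4.89% of all genes. For Jun the unadjusted p of edgeR was 0.245. Egr1, Junb and Ier2 ran together across the livers, as given below, so the 4 are not separate observations.

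The difference was -0.72 for Egr1 on the log2 scale (SE 0.183, 95% interval -1.12 to -0.32, unadjusted p = 0.00206, adjusted p = 0.558), which placed it 35th of all genes by p. Junb differed by -0.67 (interval -1.19 to -0.16), Ier2 by -0.57 (-1.03 to -0.12) and Myc by -0.81 (-1.49 to -0.13), each with an unadjusted p under 0.05 and an adjusted p of at least 0.578. These are the 4 lower members at that unadjusted level, where 3.52% of all genes stood. Ier3 was the exception in sign, at 0.80 (interval 0.02 to 1.58), a value that was 0.20 without HOPE liver 2.

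For Fos, Fosb and Ccn1, which had the largest values between perfused and unperfused livers, HOPE and HMP were not separated at this depth and number of livers. Fos differed by -0.10 (interval -1.33 to 1.13), Fosb by -0.22 (-2.23 to 1.79) and Ccn1 by -0.12 (-0.92 to 0.67). Without HMP liver 1 the sign turned for each of these 3, to 0.48, 0.95 and 0.47, so their direction was not settled.

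**Figure D2:**
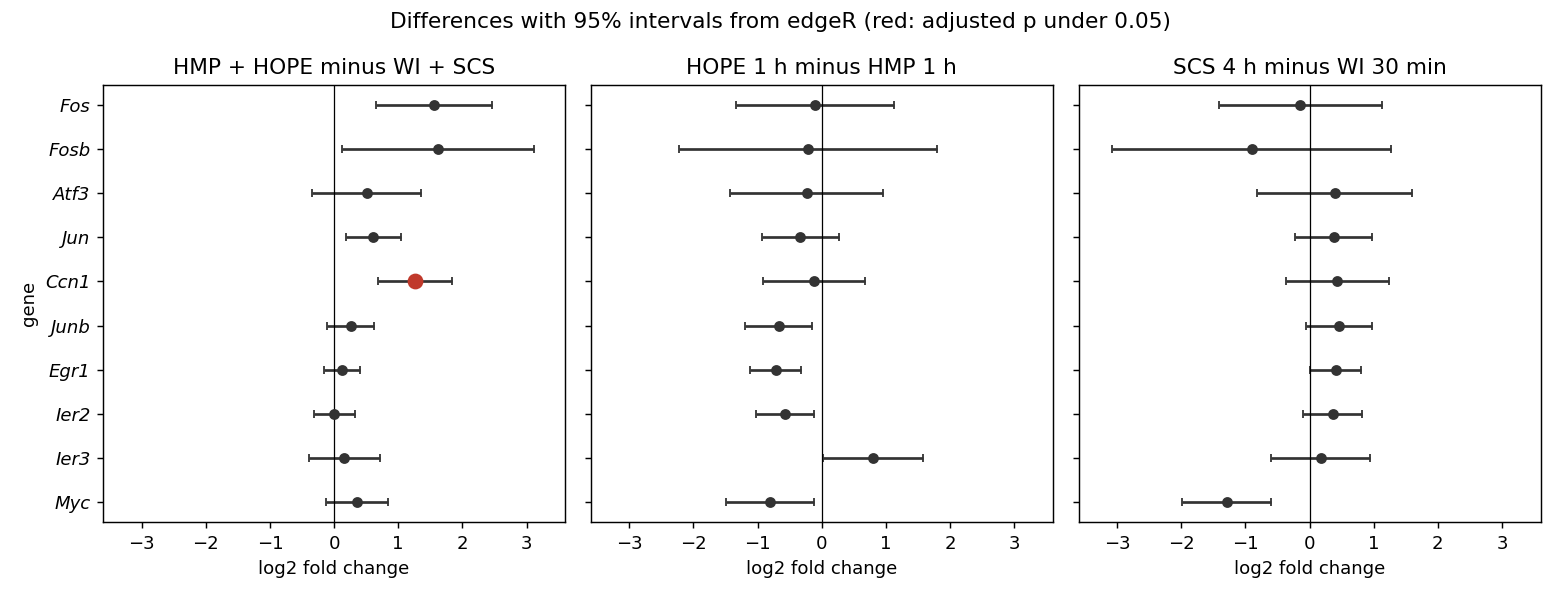
Log2 fold change of each gene (x axis) with its 95% interval from edgeR, for perfused minus unperfused livers, HOPE 1 h minus HMP 1 h and SCS 4 h minus WI 30 min. Ccn1 in the left panel is the only red point (adjusted p = 0.0475), and Egr1 (-0.72), Junb, Ier2 and Myc in the middle panel have intervals below 0.

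The other comparisons share groups with these 2 and with one another, so their values are set side by side. Against WI 30 min, HMP 1 h was higher without overlap for Jun, Junb, Egr1, Ier2 and Ccn1, 5 of 10 members against 7.57% of all genes. HOPE 1 h was higher without overlap for Jun and Ccn1, 2 of 10 against 8.77%. EdgeR called 0% of genes in either, with 6 and 4 members at an unadjusted p under 0.05 (13.8% and 8.58% of all genes). DESeq2 called 4 members, Jun, Junb, Egr1 and Ccn1, among 390 genes for HMP, and Ccn1 among 97 genes for HOPE.

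On the log2 scale Ccn1 was 1.54 above WI in HMP (SE 0.374, adjusted p = 0.131) and 1.42 in HOPE (SE 0.373, adjusted p = 0.381). When HMP liver 1 and HOPE liver 3 were left out these were 0.93 and 1.22 (edgeR adjusted p = 0.169 and 0.364). Jun was 0.97 above WI in HMP (adjusted p = 0.175) and 0.63 in HOPE (adjusted p = 0.571). Egr1 was 0.69 above WI in HMP (adjusted p = 0.153) and -0.03 from WI in HOPE (adjusted p = 0.974). The contrast in Egr1 between those 2 values is the HOPE against HMP difference given above, which did not pass the test.

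HMP 1 h and HOPE 1 h were also compared with SCS 4 h, the group with cold storage alone. Myc had the smallest p of the members in HMP 1 h, though not in HOPE 1 h. It was 2.64-fold higher in HMP 1 h (log2 1.40, SE 0.319, unadjusted p = 0.000898, adjusted p = 0.0934) and 1.51-fold in HOPE 1 h (log2 0.59, SE 0.318, adjusted p = 0.529), without overlap in both. Jun and Junb were also without overlap in HMP, which makes 3 of 10 members against 7.29% of all genes, and Fos and Ccn1 in HOPE, which makes 3 of 10 against 8.97%. EdgeR called 0 members and 0% of genes in either, with 4 members in each at an unadjusted p under 0.05 (14.5% and 10.9% of all genes). DESeq2 called Myc in HMP (adjusted p = 0.00368) among 433 genes and 0 members among 204 genes in HOPE. In HOPE, Egr1 at -0.44 and Ier2 at -0.46 were 2 members below SCS at that unadjusted level. Ccn1 was 1.11 above SCS in HMP on the log2 scale (SE 0.370, edgeR adjusted p = 0.208), with overlap. It was 0.98 above SCS in HOPE (SE 0.369, edgeR adjusted p = 0.366). Over single livers left out these values ranged from 0.51 to 1.41 in HMP and from 0.80 to 1.19 in HOPE.

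SCS 4 h against WI 30 min asks what storage in the cold adds to warm ischemia. Myc was 0.410-fold of its WI level (log2 -1.29, SE 0.318, 95% interval -1.98 to -0.59, unadjusted p = 0.00167, adjusted p = 0.93), 24th of all genes by p, and the 1 member without overlap, against 5.87% of all genes lower. Egr1 was 0.41 higher (unadjusted p = 0.045, adjusted p = 0.962), with overlap. Ccn1 was 0.43 higher (edgeR adjusted p = 0.979), with overlap. EdgeR called 0 members and 0% of genes, with 2 members at an unadjusted p under 0.05 (4.77% of all genes), and DESeq2 called 0 members and 15 genes. Summed erythroid markers were 3430 to 4624 CPM in WI livers and 571.6 to 1805 in SCS livers. Counts of the clock gene Dbp were 144, 115 and 1391 in WI livers 1 to 3, where Myc was at 23.3, 20.4 and 11.3 CPM. In SCS livers 1 to 3 the Dbp counts were 918, 1604 and 963. The part of erythroid and clock genes in these differences was not tested.

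All 9 cold-preserved livers against the 3 WI livers gave 0 members called by edgeR, where 1 gene was called (0.00731%), and 5 members at an unadjusted p under 0.05 (7.96% of all genes). DESeq2 called Ccn1 among 76 genes. Ccn1 was 1.13 higher on the log2 scale (SE 0.321, adjusted p = 0.452), and Jun 0.66, Junb 0.48 and Egr1 0.35 higher, while Myc was -0.62. Overlap remained for all 10 members in this comparison, against 1.5% of all genes without it.

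Livers of 1 group differed more in these genes than in most genes of like level. The SD of log2 CPM within groups had a median of 0.472 over the members and 0.292 over all tested genes. Compared with genes of like level (mean log2 CPM within 0.5), all 10 members lay above the median, and Fos (percentile 98.9), Fosb (98.8), Atf3 (97.3), Ccn1 (95.2) and Ier3 (94.1) above percentile 90. Egr1 had the smallest SD, 0.234, and Fosb the largest, 1.44. Egr1 and Ier2 (0.284) lay below the median of all tested genes. HMP liver 1 was the highest of the 12 for 6 members, Fos, Fosb, Egr1, Atf3, Ier2 and Ccn1, and WI liver 2 the lowest for 4, Fos, Fosb, Atf3 and Ccn1.

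**Figure D3:**
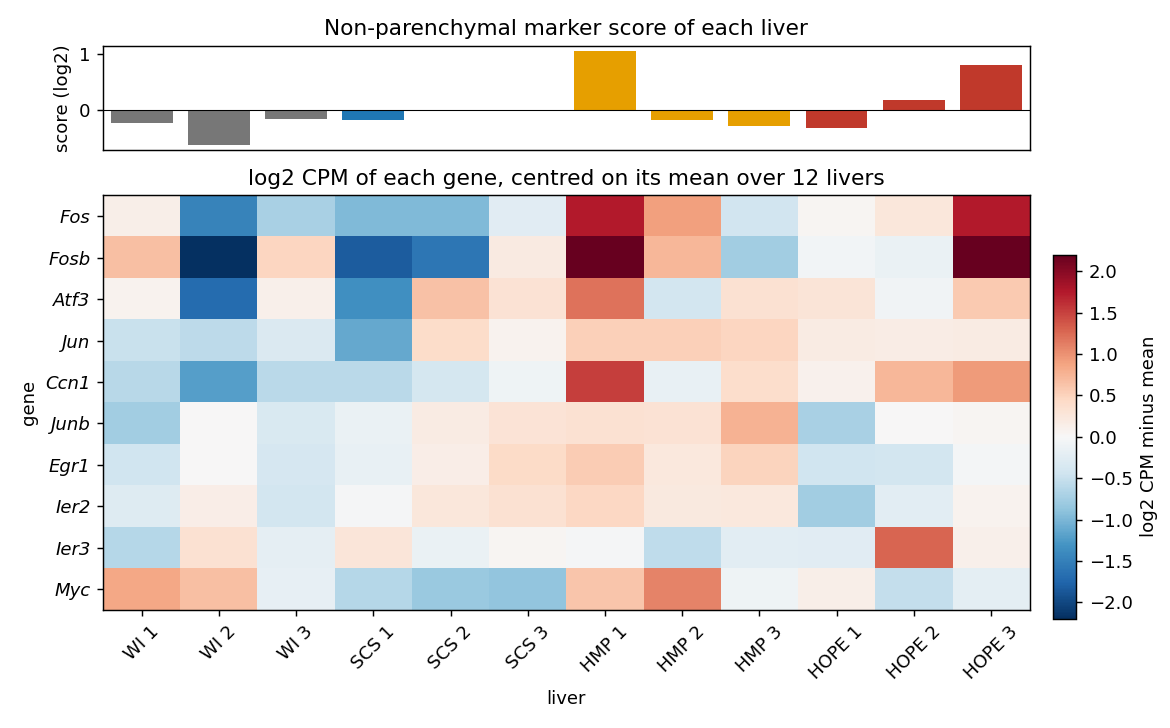
Lower panel, log2 CPM of each gene minus its mean over the 12 livers (colour), by liver, and upper panel, the non-parenchymal marker score of each liver (log2). Fos, Fosb and Ccn1 are high in HMP liver 1 and HOPE liver 3, the livers with scores of 1.06 and 0.799, Junb, Egr1 and Ier2 are high in HMP and low in HOPE liver 1, and Myc is low in the SCS livers.

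Some members ran together across the livers. Of the 45 pairs, 5 had Pearson's r of log2 CPM above 0.8 over the 12 livers, with a median of 0.22 over all pairs and 11 pairs below 0. Fos and Fosb had r = 0.92, which was 0.94 after group means were removed and 0.82 without HMP liver 1 and HOPE liver 3. Fos and Ccn1 had r = 0.82, 0.65 after group means were removed and 0.60 without both livers. Atf3 was closer to Jun (0.73, and 0.69 with group means removed), Ccn1 (0.71 and 0.69) and Fosb (0.69 and 0.68) than to Fos (0.60 and 0.50). That order did not hold for Jun in every setting. Without the 2 livers farthest from the median of Jun, Jun with Atf3 had r = 0.29. Without the 2 livers farthest from the median of Fos, Fos with Atf3 had r = 0.39.

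Egr1, Junb and Ier2 also ran together. Egr1 and Ier2 had r = 0.89 (0.80 with group means removed, 0.88 without the pair of livers), Egr1 and Junb 0.87 (0.70 and 0.89) and Junb and Ier2 0.84 (0.74 and 0.83). Of 13686 other tested genes, Ier2 was the most alike to Egr1 and Egr1 the most alike to both Ier2 and Junb. Jun had intermediate values with members on both sides, 0.65 with Ccn1 (0.20 with group means removed), 0.53 with Junb and 0.52 with Egr1. Values of Egr1, Junb or Ier2 against Fos, Fosb, Atf3 or Ccn1 lay between -0.01 and 0.36, and Ier3 with Myc had the lowest value of all, -0.46. The points share groups, libraries and scaling, and these values are a description.

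**Figure D4:**
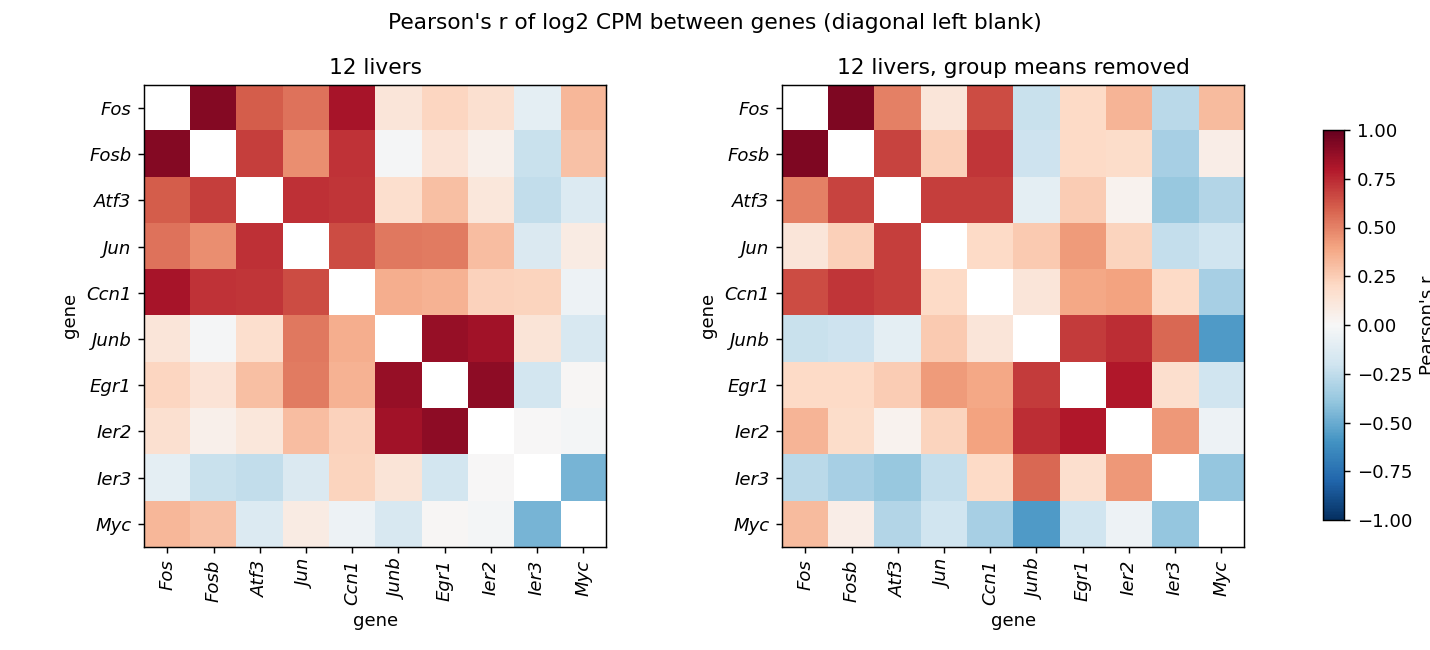
Pearson's r of log2 CPM (colour) between the 10 genes over the 12 livers, as measured (left) and with group means removed (right), diagonal blank. Fos with Fosb (0.92 and 0.94) and Egr1 with Ier2 (0.89 and 0.80) are high in both panels, Atf3 is nearer to Jun (0.73 and 0.69) than to Fos (0.60 and 0.50), and Jun with Ccn1 is at 0.65 on the left and 0.20 on the right. Without the 2 livers farthest from the median of Jun, Jun with Atf3 was at 0.29 (not drawn).

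Fos, Fosb and Ccn1, with Atf3, also followed the non-parenchymal score. Over the 12 livers, Ccn1 had r = 0.85 with the score, Fos 0.81, Fosb 0.77 and Atf3 0.66, while Jun had 0.42, Ier2 0.37, Egr1 0.32, Junb 0.26, Ier3 0.17 and Myc -0.08. Without HMP liver 1 and HOPE liver 3 the values were 0.61 for Ccn1, 0.54 for Atf3, 0.39 for Fos and 0.35 for Fosb. They were 0.36 for Ier3, 0.33 for Jun, 0.15 for Junb, 0.07 for Ier2, -0.03 for Egr1 and -0.61 for Myc. The share of counts from mitochondrial genes moved with Ccn1, Fos and Fosb, at r = 0.82, 0.73 and 0.68 over the 12 livers. Without that pair of livers these were 0.67, 0.35 and 0.25, and the part of this share in their differences was not tested. Total counts had r = 0.66 for Ccn1, 0.73 for Fos and 0.61 for Fosb, and 0.62, 0.68 and 0.47 without that pair. A score of 15 tested clock genes had r = 0.30, 0.09 and 0.08 for the same members in order, and 0.86, 0.29 and 0.27 without that pair. Over the 12 livers the value largest in size was that of Myc, -0.57 (-0.53 without that pair). Jun had 0.36 and Atf3 0.29, and 0.62 and 0.63 without that pair. The score averages clock genes that moved in opposite directions, so it can miss a shift between them. Arntl and Dbp had 634 and 138 counts in HMP liver 1 and 34 and 3322 in HOPE liver 3. The part of total counts and of the clock genes was not tested either. All 11 Kupffer cell, 11 sinusoidal endothelial, 11 stellate cell and 8 bile duct markers in the table had reads. Summed Kupffer cell markers were 537 to 692.5 CPM in WI, 734 to 839 in SCS, 638 to 2006 in HMP and 609 to 1232 in HOPE livers. Summed sinusoidal endothelial markers were 565 to 621, 592 to 811, 622 to 1320.3 and 595 to 1447 CPM, and stellate cell markers 482 to 727, 574 to 916, 570.1 to 1769.9 and 743 to 1156 CPM in the same order of groups. Bile duct markers were at 30.2 to 39.9, 32.1 to 36.9, 33.4 to 46.6 and 38.1 to 49.5 CPM. The part of each cell type in the result on Ccn1 was not tested. The 2 fits given above, without the pair of livers and with the score as a covariate, treat the 4 cell types together.

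**Figure D5:**
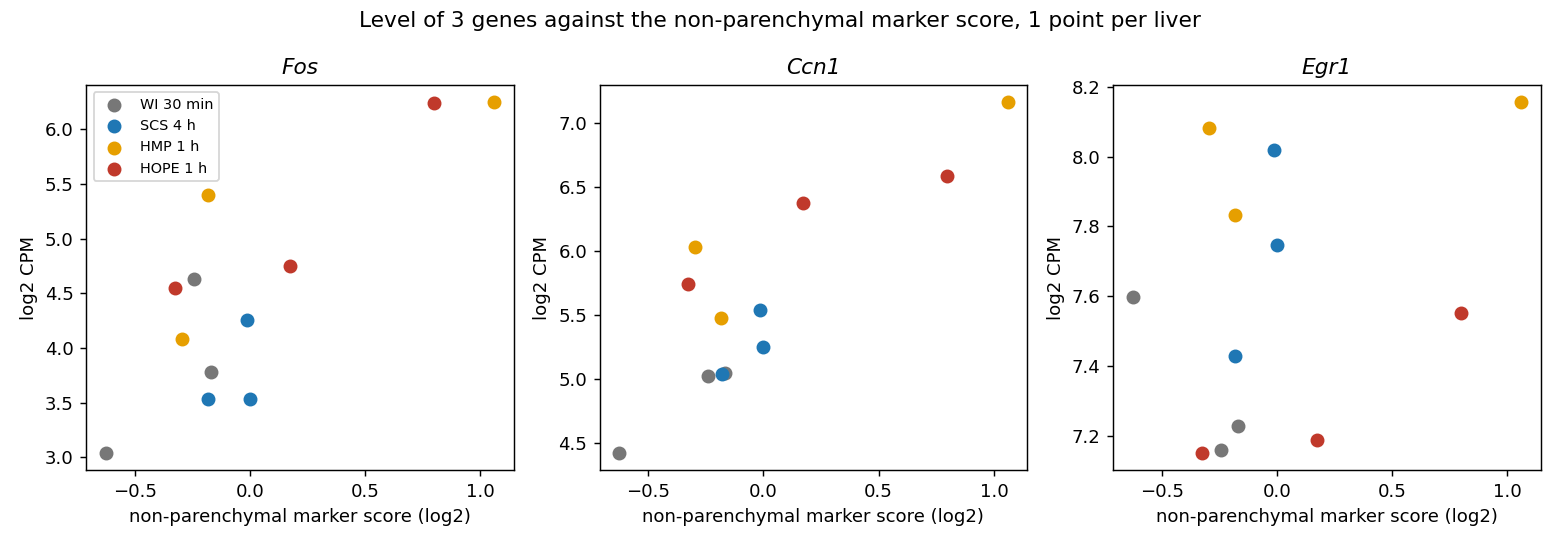
Log2 CPM of Fos, Ccn1 and Egr1 (y axis) against the non-parenchymal marker score (x axis, log2), with a point per liver coloured by group. HMP liver 1 (score 1.06) and HOPE liver 3 (0.799) are at the upper right for Fos and Ccn1, and Egr1 is spread over all scores at r = 0.32.

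Outside the members, the genes most alike to each over the 12 livers were named by rank of r. Fos was most like Plek (r = 0.94), Elf2 and Evl, and Fosb most like Smc2 (0.92), Rexo5 and Plk4. Ccn1 was most like Ms4a6a (0.95), Fam49b and Cd300le (0.94), and Atf3 most like Klf6 (0.92), itself an immediate early factor, Fau (0.90) and the cytokine gene Il1a (0.88). Jun was most like Unc5d (0.92), Fkbp14 and Dennd2a, Junb most like Sltm (0.87), Mbd6 and Spindoc, and Egr1 most like Smarcc2 (0.87), mrpl9 and Sh3bp5. Ier2 was most like Use1 (0.89), H2afv and Smarcc2, Ier3 most like Ino80b (0.89), Mogs and Mif, and Myc most like Tspan14 (0.90), Kdm1a and Zfp775.

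Lists of pathway genes that hold no member were counted in the comparison of perfused with unperfused livers, in which edgeR called 0 genes of each list, against the 1.02% given above, and the counts at an unadjusted p under 0.05 are given with each. Of 20 tested EGR, NR4A and KLF factors, 20 were above 0 with a median of 0.43, and 7 were higher at that level. HMP liver 1 had the highest mean log2 score of this list, 0.607, followed by HOPE liver 3 with 0.548, against -0.579 to 0.218 in the other livers. Without both, 15 of 19 tested genes were above 0 with a median of 0.21, and 4 were higher. Nr4a1, an orphan nuclear receptor gene, was at 30.2 ± 8.96 CPM in perfused and 14.5 ± 7.18 in unperfused livers (log2 1.04, SE 0.322, adjusted p = 0.141), and Egr3 differed by 0.99, Hes1 by 0.10 and Klf9 by 0.04. Of 22 tested secreted and growth genes, 22 were above 0 with a median of 0.64, and 9 were higher. Its score reached 0.727 in HMP liver 1 and 0.552 in HOPE liver 3, against -0.612 to 0.275 in the others, and without both livers 17 of 22 genes were above 0 with a median of 0.28, and 6 were higher. The matrix gene Thbs1 differed by 1.13 (adjusted p = 0.158) and by 0.87 without both, and at the other end Tiparp by 0.05 and Plk3 by 0.01.

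Of 11 tested AP-1 relatives, 8 were above 0 with a median of 0.21, and 4 were higher at the unadjusted level (9 of 11, a median of 0.20 and 2 higher without HMP liver 1 and HOPE liver 3). Jdp2 differed by 0.77 and Fosl2 by 0.75, Mafg by -0.10 and Maff by -0.61. Of 32 genes listed as feedback inhibitors, most of which limit the response, 25 were above 0 with a median of 0.28. At that level 5 were higher and 1, Gadd45a, was lower (log2 -0.85, SE 0.260, adjusted p = 0.135). Without both livers 22 of 31 were above 0 with a median of 0.22, 2 were higher and 1 lower. Socs1 differed by 1.17, and by 0.46 without both, Dusp8 by 0.78 and Socs2 by -0.58 (-1.68 without both).

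The kinases and factors upstream of the members, which are mostly regulated as proteins, and the MYC network were near the median of all genes, 0.03. Of 26 upstream genes 18 were above 0 with a median of 0.03, with 1 higher and 2 lower at the unadjusted level. Elk3 differed by 0.46 (0.03 without both livers), Mrtfa by 0.29, Map2k2 by -0.31 and Creb1 by -0.34. Of 22 genes of the MYC network, which holds partners and targets, 13 were above 0 with a median of 0.01, and 2 were higher. Ccnd1, the cyclin D1 gene, was at 46.9 ± 17.4 CPM in perfused and 22.6 ± 16.2 in unperfused livers (log2 1.28, SE 0.286, adjusted p = 0.059, and log2 0.98 without both livers), and Ccne1 differed by 0.81, Odc1 by -0.20 and Mxi1 by -0.21.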

How the data were processed

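Per the study's methods, the authors aligned paired-end reads with Hisat2 and used StringTie, on Rnor_6.0 according to the submitters' processing notes. The sources used here do not name the counting tool or its strand setting. The authors deposited raw counts per gene for each liver, which were tested. The FPKM that the authors deposited divide counts by gene length and by a library total, implied by the values to be 15010500 to 19366700, and were used only for levels between genes. The deposited log2 fold changes, p-values and group means per comparison hold the authors' own comparisons and were not used. All 24 columns of values per liver were matched by name, and 0 were left unmatched.

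Genes were filtered with filterByExpr by group, scaled with TMM and tested with edgeR 4.0.16 in R 4.3.3 (quasi-likelihood, all 12 livers, a mean per group, 8 residual and 3.86 prior degrees of freedom). P-values were adjusted by Benjamini-Hochberg across all 13687 tested genes in each comparison, with calls under 0.05. Log2 CPM used a prior count of 2. The members and lists were chosen with earlier results of these data known. Named genes are the members, the 3 genes most alike to each, and the 2 highest and 2 lowest of each list between perfused and unperfused livers, of which 1 is not reported here. Motif matches came from RefSeq promoters. P-values set a difference between groups against the spread between livers within groups, estimated over all groups together.

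Alternatives were DESeq2 1.42.0, RLE scaling, fits without a filter, with a replicate block or on the compared groups alone, a prior count of 0.5, and each liver left out. Leaving out HMP liver 1 and HOPE liver 3, the non-parenchymal score as a covariate and an unadjusted p under 0.05 were added after seeing the data. A change of sign in an uncalled gene was counted only where the value moved by more than 1 SE. On simulated counts of 13687 genes for perfused against unperfused livers, edgeR recovered 20.9%, 61.2% and 87.9% of genes changed 1.5-, 2- and 4-fold, with 6 false calls.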

Additional observations from a re-analysis of the deposited data

Results flagged for a closer look

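In 3 of 30 combinations of a gene and a set of livers (cold-preserved, perfused or unperfused), 1 liver stood far from the others. The cutoffs used mark about 1 in 20 sets drawn from a single normal distribution. The sets here pool groups and overlap, so their count cannot be compared with that rate. Jun in SCS liver 1 was low among the 9 cold-preserved livers, at 104 CPM, with a gap to the next liver of 0.724 of the whole range of log2 CPM. Ier3 in HOPE liver 2 was high, at 69.7 CPM, with a gap of 0.638 of the range among the 6 perfused livers and of 0.554 among the 9 cold-preserved livers. Without HOPE liver 2 the Ier3 difference between HOPE 1 h and HMP 1 h was 0.20 in place of 0.80 on the log2 scale. Without SCS liver 1 the Jun difference between HOPE 1 h and SCS 4 h was -0.080 in place of 0.25. Why these livers differ was not tested.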

How the results depend on the processing

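Of 1440 refitted differences of the members, 1409 kept their side of the threshold with no change of sign beyond 1 SE, 9 gained a call, 11 lost it (all Ccn1 in perfused against unperfused) and 11 changed sign. All 9 gains were with DESeq2, which called 4 members in HMP 1 h against WI 30 min, 1 each in HOPE 1 h against WI 30 min, HMP 1 h against SCS 4 h and cold-preserved against WI 30 min, and 3 in perfused against unperfused livers. It called 15, 390, 97, 433, 204, 19, 757 and 76 genes in SCS against WI, HMP against WI, HOPE against WI, HMP against SCS, HOPE against SCS, HOPE against HMP, perfused against unperfused and cold-preserved against WI. Without a filter edgeR called 1, 19, 8 and 19 genes in the first 4 of these, and with only the groups compared 2 in HOPE against WI and 5 in HOPE against SCS.

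Same-numbered livers were not treated as paired: 1 of 18 pairs had r of deviations above 0.1, and 5 of 12 livers correlated best with their own number. These values cannot show whether same-numbered livers shared their handling, which the labels do not give. With the replicate block 66 genes and 0 members were called in perfused against unperfused livers (Ccn1 adjusted p = 0.0718), 1 gene in SCS against WI, 1 in HOPE against WI and 0 in cold-preserved against WI. Without HMP liver 1 and HOPE liver 3 edgeR called 46 genes in HMP against WI, 1 in HOPE against WI, 22 in HMP against SCS, 1 in HOPE against SCS, 61 genes and 0 members in perfused against unperfused and 3 in cold-preserved against WI, and Fos with Ccn1 had r = 0.598. With the score as a covariate 65 genes were called in perfused against unperfused.

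Leaving out each liver, genes called ranged from 0 to 166 and members from 0 to 1 in perfused against unperfused, and genes from 0 to 1 in SCS against WI, 0 to 29 in HMP against WI, 0 to 4 in HOPE against WI, 0 to 36 in HMP against SCS, 0 to 1 in HOPE against SCS, 0 to 2 in HOPE against HMP and 0 to 3 in cold-preserved against WI. Signs changed, with these lowest and highest values over single livers left out, without HMP liver 1 for Fos (-0.84 to 0.48), Fosb (-1.47 to 0.95) and Ccn1 (-0.43 to 0.47) in HOPE against HMP, without HMP liver 2 for Myc in HMP against WI (-0.21 to 0.37), without SCS liver 1 for Jun in HOPE against SCS (-0.080 to 0.58), without HOPE liver 2 for Ier3 in HOPE against SCS (-0.13 to 0.75) and perfused against unperfused (-0.14 to 0.30), and without HOPE liver 3 for Fosb in HOPE against WI (-0.19 to 1.48). Without both livers they changed for Fosb in HOPE against WI (-0.20) and cold-preserved against WI (-0.34) and for Ccn1 in HOPE against HMP (0.29). Only changes of sign beyond 1 SE are listed here for these uncalled differences. The cause of these changes was not tested. Recovery of known changes was simulated for perfused against unperfused livers and not for single groups of 3.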

Other observations

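The list of feedback inhibitors holds mostly phosphatases, RNA-decay factors and signalling brakes that limit immediate early induction. Its log2 fold changes of HOPE 1 h against HMP 1 h were below 0 in 26 of 32 tested genes. Their median was -0.28, beside -0.29 for the members and -0.01 for all genes. Of these 32 genes, edgeR called 0, and 1 was lower at an unadjusted p under 0.05. The mean log2 score of the list was 0.486 in HMP liver 1, -0.0063 and 0.233 in the other HMP livers, and -0.185, 0.0708 and 0.157 in HOPE livers 1 to 3, so the groups overlapped. Without HMP liver 1 and HOPE liver 3, 20 of 31 tested genes were below 0 with a median of -0.32, 2 were lower at that level, and the members' median was -0.33. The EGR, NR4A and KLF factors were below 0 in 15 of 20 (median -0.24), and in 16 of 19 without both livers (median -0.28). Secreted and growth genes were below 0 in 11 of 22 (median 0.00), and in 12 of 22 without both (median -0.13).

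Across the 12 livers Fos had r = 0.99 with the score of the secreted and growth genes, a list without members, and 0.98 without HMP liver 1 and HOPE liver 3, while Egr1 had 0.19 and -0.18. The points share libraries, scaling and groups.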
